A study of Saccharomyces cerevisiae with 7 samples.

Results

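The respiratory chain and the ATP synthase of Saccharomyces cerevisiae were followed through 32 nuclear genes: 3 NADH dehydrogenase genes, 9 genes for subunits of complex III, the main cytochrome c gene, 8 genes for subunits of complex IV, and 5 genes for the F1 head and 6 for the stalk and membrane part of the ATP synthase. The genes were chosen by name and complex, with earlier results of these data known, and measured values served only to pick between probe sets of a gene. Each was found by its symbol among the 6504 probe sets that the platform annotation assigns to 1 gene, and where a gene had several probe sets the one with the highest mean log2 intensity was used. All 32 were found among the 5656 genes with such a probe set, and all 32 were among the 5220 genes that passed the filter on low values. No member lay at or below the floor of 12 intensity units on any array.

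The data came from 7 one-colour Affymetrix arrays of strain CEN.PK113-7D, a haploid laboratory strain. All 7 cultures were aerobic chemostats, in which the feed of a limiting nutrient sets the growth rate. The limiting nutrient was glucose, at 7.5 g/l in the medium, and cells were held at pH 3.5 and 30 °C and diluted at 0.1 per h. With no addition there were 3 arrays (control), with 10 g/l galacturonic acid, the sugar acid that builds pectin, 2 arrays, and with 0.23 g/l galactose 2 arrays. Each array carried a culture code of its own, and the codes of the galactose arrays begin with other letters than the codes of the other 5. Whether this marks a batch is not given in the sources used here, and if it does, batch and galactose cannot be told apart. A label field of the galactose arrays gives their dose as one of galacturonic acid, against 3 other fields that name galactose, and the latter were followed.

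Yeast respires without the large proton-pumping NADH dehydrogenase of most eukaryotes. Single-subunit enzymes feed electrons into ubiquinone instead: Ndi1 oxidises NADH of the mitochondrial matrix, and Nde1 and Nde2 oxidise NADH of the cytosol from the outer face of the inner membrane. Complex III passes the electrons to cytochrome c, complex IV passes them to oxygen, and both pump the protons that drive the ATP synthase. At low growth rates in aerobic glucose-limited chemostats, yeast respires its sugar through this chain.

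The arrays were not equally alike, and the differences touched these genes. On each array the trimmed mean of the deposited intensities was 150.1. Pearson's r of log2 intensity over the tested genes was at least 0.951 for any pair of control arrays, 0.976 for the galacturonic acid pair and 0.818 for the galactose pair. ACT1, the actin gene, has control probe sets at its 3' and 5' ends, whose ratio was 19.8 on galactose array 1, 306 on galactose array 2 and 1.07 to 1.34 elsewhere. For SPT15, another gene with such probe sets, the ratio was 2.76 on galactose array 1, 124 on galactose array 2 and 1.66 to 2.75 elsewhere. By SPT15 only galactose array 2 stood far apart. The median SD of the 32 genes between arrays of a group was 0.18 in control, 0.15 with galacturonic acid and 0.73 with galactose on the log2 scale, against 0.30, 0.17 and 0.52 for all tested genes. The fit used 1 spread per gene over all 7 arrays. The galactose arrays thus entered the error of every comparison, and results are given with and without them where they changed a call.

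The first comparison asked how galacturonic acid affects the cells. Among the respiratory genes 1 passed the test: NDE2 fell. Its intensities were 667.7, 569.8 and 694.8 on the control arrays and 59.3 and 106.1 with galacturonic acid. Both galacturonic acid arrays lay far below all 3 control arrays. The log2 difference was -3.02 ± 0.45 (SE), an 8.09-fold lower level (limma, adjusted p = 0.0156 over all tested genes). In a fit of the control and galacturonic acid arrays alone the adjusted p was 0.00678. Leaving out any 1 of these 5 arrays ended the call, with a log2 difference between -3.44 and -2.60 and adjusted p between 0.0740 and 0.297, whereas leaving out either galactose array kept it, with adjusted p of 0.00625 and 0.00638.

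NDE1, which codes for the other external enzyme, did not pass the test. It read 1518.7, 1572.5 and 1575.5 in control and 1611.5 and 1526.1 with galacturonic acid, and the galacturonic acid arrays lay on both sides of the control values. Its log2 difference was 0.01 ± 0.29 (limma, adjusted p = 0.995), with a 95% interval of -0.65 to 0.67. The probe sets of NDE1 and NDE2 have different brightness, so their ratio is compared between arrays only. NDE2 over NDE1 was 0.440, 0.362 and 0.441 on the control arrays and 0.0368 and 0.0695 with galacturonic acid. The log2 of this ratio differed by -3.03 between the groups. With 2 arrays against 3, an exact two-sided permutation test gave p = 0.2, the smallest value it can reach.

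NDI1, the gene of the matrix-facing enzyme, read 983.5, 1168.4 and 981.6 in control and 1704.4 and 1404.2 with galacturonic acid. Both galacturonic acid arrays lay above all control arrays, but the log2 difference of 0.57 ± 0.68 did not pass (limma, adjusted p = 0.817). With the galactose arrays left out of the fit the adjusted p was 0.137.

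**Figure D1:**
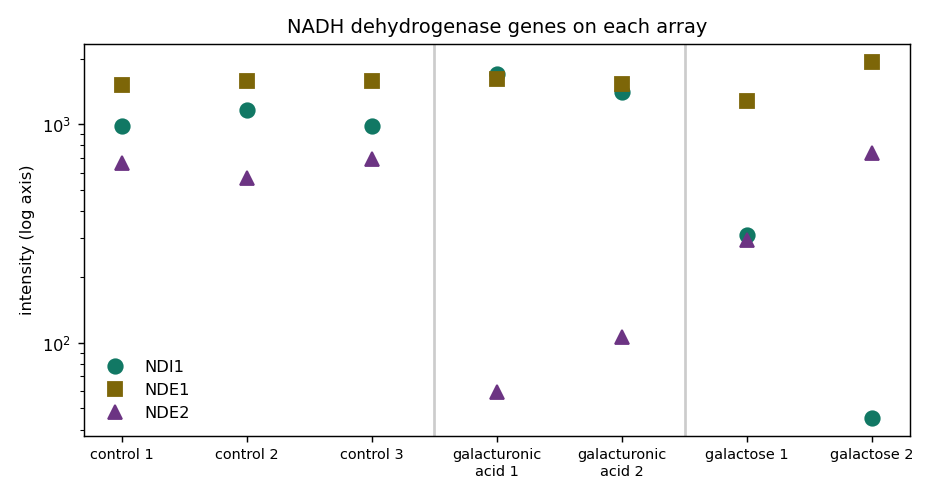
Intensity (log axis) of the probe sets of NDI1, NDE1 and NDE2 on each of the 7 arrays, 1 point per array and gene. NDE2 drops to 59.3 and 106.1 on the galacturonic acid arrays, NDE1 stays between 1280.2 and 1933.6 on all arrays, and NDI1 drops to 309.9 and 45.2 on the galactose arrays.

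Over all tested genes, 0.881% were called higher and 1.44% lower with galacturonic acid. Of the 32 respiratory genes none was called higher and 1 lower, so the call is a result about NDE2 and not about the set. At an unadjusted p under 0.05, limma placed 1 gene higher, ATP5, and 1 lower, against 297 and 354 of the 5220 tested genes. The other 31 genes had adjusted p of 0.395 or above. For 30 of these 31 the 95% interval held 0. For 17 of the 31 it reached a 2-fold change, so a change of that size is not excluded for those 17 genes.

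The subunit genes nevertheless lay more often above control than below it. The log2 difference was above 0 for 24 of 32 genes, against 2546 of 5220 tested genes, and its median was 0.25, against -0.01. For 11 genes both galacturonic acid arrays lay above all 3 control arrays (NDI1, COR1, QCR2, RIP1, CYC1, COX4, COX5A, COX13, ATP2, ATP5 and ATP20), where 20.0% of all tested genes did so. For 2 genes, NDE2 and ATP3, both lay below all control arrays, where 21.1% of all tested genes did so, and the remaining 19 overlapped. The 2 galacturonic acid arrays differed by at most 1.79-fold for any member, which was NDE2. On each of them 31 of the 32 genes were within 2-fold of the control mean. These counts describe the set and are not a test of it.

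Complex III carries electrons from ubiquinone to cytochrome c. Its 9 genes had a median log2 difference of 0.23, and none passed the test. The highest was QCR2, a core subunit, which read 1167.9, 1148.5 and 1259.6 in control and 2220.9 and 1927.3 with galacturonic acid. Both galacturonic acid arrays lay above all control arrays, with a log2 difference of 0.80 ± 0.57 (limma, adjusted p = 0.637). In the fit of the 2 groups alone QCR2 narrowly missed the threshold (adjusted p = 0.0507), and when low genes were also filtered on those arrays, a setting chosen after seeing the data, it passed (adjusted p = 0.0402). In the first of these fits 1.93% of tested genes were called higher and 2.97% lower, in the second 3.60% and 4.66%.

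The other core gene, COR1, read 269.7, 261.7 and 264.5 in control and 328.5 and 364.7 with galacturonic acid, a log2 difference of 0.38 ± 0.39. RIP1, the gene of the Rieske iron-sulfur protein, read 1864.5, 1454.1 and 1398.7 against 2649.2 and 2108.8. A separate control probe set for RIP1 on the array read 1749.4, 775 and 456.7 in control and 1469.4 and 1833.8 with galacturonic acid, so with that probe set the groups overlapped. CYT1, the cytochrome c1 gene, varied between control arrays from 251.9 to 739.2, and its galacturonic acid values of 868.9 and 689.5 overlapped them. The 5 genes of the small subunits QCR6, QCR7, QCR8, QCR9 and QCR10 had log2 differences from -0.07 (QCR8) to 0.23 (QCR10), and all 5 overlapped with control. QCR8 was read by a dim probe set, at 35.4 to 53.3 on the control arrays, and its second probe set read 3 or less on all 7 arrays.

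Cytochrome c, the mobile carrier between the complexes, is encoded mainly by CYC1. CYC1 read 2035.2, 1815.5 and 1379.6 in control and 2547.2 and 2775.3 with galacturonic acid. The groups did not overlap, and the log2 difference of 0.63 ± 0.30 did not pass (limma, adjusted p = 0.460). The 95% interval ran from -0.06 to 1.32. Its isoform partner CYC7, which is favoured when oxygen is low, read 46.8, 86.7 and 54.7 in control and 42.5 and 52.6 with galacturonic acid, a log2 difference of -0.36 ± 0.56 with overlapping groups.

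The 8 nuclear genes of complex IV, cytochrome c oxidase, had a median log2 difference of 0.31, and none passed. The highest was COX8 at 0.58 ± 0.43, although its control arrays spread from 761.2 to 2057.8 and held both galacturonic acid values, 1751.2 and 2047. The lowest was COX9, which read 1523.3, 1747.4 and 1831.2 in control and 1590.3 and 1194.8 with galacturonic acid. COX9 was the one complex IV gene with a difference below 0, at -0.30 ± 0.28, and its groups overlapped. COX4 read 1388.6, 1200.7 and 1308.6 against 1738.5 and 1546.7, and COX13 read 762.7, 649.8 and 689.8 against 990.3 and 814.9. Both were above all control arrays, at log2 differences of 0.34 ± 0.31 and 0.36 ± 0.39. COX5A, the aerobic isoform of subunit V, read 1470.7, 1151.5 and 1019.7 in control and 1522.3 and 1615.8 with galacturonic acid. Its hypoxic partner COX5B read between 4.3 and 13 on all 7 arrays, at or near the floor, so no ratio between the isoforms was formed.

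In the F1 head of the ATP synthase, the 5 genes had a median log2 difference of 0.05. ATP2, the gene of the catalytic beta subunit, was highest, at 1353.8, 812.6 and 746.8 in control and 1435 and 1483.3 with galacturonic acid. Its log2 difference of 0.64 ± 0.55 did not pass (limma, adjusted p = 0.726). ATP3, the gene of the rotating gamma subunit, was lowest, at 2481.5, 2328.9 and 2444.9 against 2028.4 and 2141. All its galacturonic acid values lay below control, by a log2 difference of -0.21 ± 0.32. The alpha, delta and epsilon subunit genes ATP1, ATP16 and ATP15 overlapped with control, at 0.38, 0.05 and -0.19.

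The 6 genes of the stalk and membrane part had a median of 0.15. ATP5, which codes for the subunit that ties the stalk to the head, had the highest log2 difference of the 32 genes. It read 350.7, 315.5 and 261.2 in control and 530 and 548.2 with galacturonic acid. The groups were well apart, yet the log2 difference of 0.81 ± 0.35 did not pass (limma, adjusted p = 0.395). With array weights, which gave each galactose array a weight of 0.263, it did (0.84, limma, adjusted p = 0.0221). That fit called 347 of the 5220 tested genes higher and 427 lower, against 46 and 75 in the main fit. ATP17, a small membrane subunit gene, was lowest at -0.21 ± 0.29. ATP20, another small membrane subunit gene, read 194.9, 250.4 and 225.7 against 261 and 270.7, above all control arrays by 0.26. ATP4, ATP7 and ATP14 overlapped with control, at 0.01, 0.04 and 0.29.

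**Figure D2:**
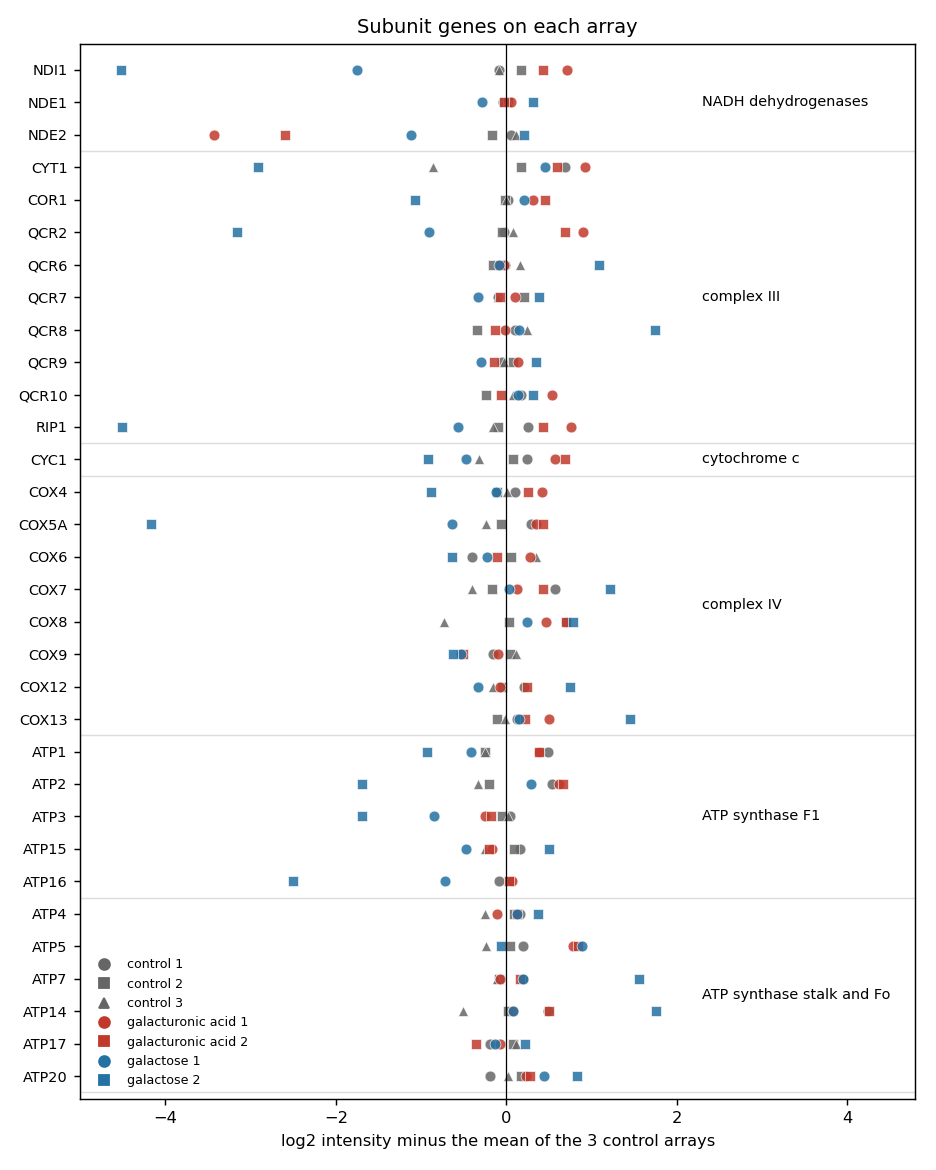
Log2 intensity of each of the 32 genes on each array, relative to the mean of the 3 control arrays (x axis, log2 units), with 1 row per gene in order of complex. Colours mark the group and shapes the array. On each galacturonic acid array 31 of the 32 points lie within 2-fold of the control mean, all but NDE2, while galactose array 2 lies from -4.53 to 1.76.

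The wider pathway was described through 93 further genes in 9 lists, of which 88 passed the filter on low values. With galacturonic acid 1 of the 88 was called higher and none lower, where 0.881% and 1.44% of all tested genes were so called. The log2 difference was above 0 for 65, against 2546 of 5220 tested genes, and the median was 0.28, against -0.01. At an unadjusted p under 0.05 limma placed 12 higher and 2 lower, against 297 and 354 of the 5220. Both galacturonic acid arrays lay above all control arrays for 34 of the 88 and below them for 8, where 20.0% and 21.1% of all tested genes did so.

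The list that lay highest held the assembly factors, the chaperones and cofactor enzymes that build cytochrome c, complexes III and IV and the ATP synthase. Of its 29 genes, 28 had a log2 difference above 0, for 21 both galacturonic acid arrays lay above all controls, and none lay below, where 20.0% and 21.1% of all tested genes did so. The median was 0.60. ATP10, which helps to assemble the ATP synthase, was the gene that rose, by 1.27 ± 0.20 on the log2 scale (limma, adjusted p = 0.0211). It read 13.1, 14.1 and 9.2 in control and 28.8 and 34.5 with galacturonic acid, so its control level was near the floor, with 1 control array below it. On the galactose arrays it read 1.2 and 3. Both were raised to the floor, so they entered the error of this call with no spread. Without the intensity trend its adjusted p was 0.0586, and leaving out any 1 control or galacturonic acid array gave 0.0916 to 0.135.

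In the fit of the 2 groups alone, 5 of the 88 genes were called higher and none lower, where 1.93% and 2.97% of all tested genes were so called. These were ATP10, COX10, COX18, SDH4 and NCA3. COX10, which acts in making the heme of cytochrome oxidase, read 128.3, 115.7 and 113 in control and 358.9 and 265.2 with galacturonic acid. COX18, needed to insert a core subunit of that enzyme, read 144.2, 148.8 and 155.2 against 326.4 and 266.3. The log2 differences were 1.38 (adjusted p = 0.0241 in that fit) and 0.98 (adjusted p = 0.0433), and neither passed in the fit of all 7 arrays, at 0.202 and 0.255.

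Complex II, succinate dehydrogenase, feeds ubiquinone from the citric acid cycle. Its 4 genes had a median log2 difference of 0.51, and none passed. SDH4, a membrane anchor gene, read 1154.1, 996.9 and 1155.9 in control and 2644.1 and 2207.1 with galacturonic acid. SDH1, the flavoprotein gene, read 805.3, 777.9 and 698.3 against 1350.8 and 1235.7. Both were above every control array, at log2 differences of 1.14 ± 0.32 and 0.77 ± 0.26 (adjusted p = 0.156 and 0.253 with all 7 arrays, 0.0239 and 0.0514 with the 2 groups alone). SDH2 was also above, and SDH3 was below all control arrays at -0.53 ± 0.34, so the 4 genes did not differ in 1 direction.

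Among the 7 mitochondrially encoded genes, 4 passed the filter and none passed the test. COX1, a core subunit of complex IV, read 837.6, 259.3 and 446.3 in control and 2182.7 and 1647.6 with galacturonic acid. With the probe set used it lay above all control arrays at a log2 difference of 2.05 ± 0.47, short of the threshold (limma, adjusted p = 0.0816). A dim second probe set of COX1 read 6.8, 11.4 and 16.5 in control and 15.7 and 20.8 with galacturonic acid, so its groups overlapped. It gave 0.44 in a fit of every probe set and did not pass (limma, adjusted p = 0.801). Another COX1 probe set did not pass the filter on low values. COX2, ATP6 and ATP8 did not pass the filter on low values. Of the 14 tested factors for mitochondrial mRNAs, with a median of 0.14, none passed. NCA3 of this list read 59.6, 120.6 and 88 in control and 431.3 and 489.6 with galacturonic acid, a log2 difference of 2.42 ± 0.87 (adjusted p = 0.283 with all arrays, 0.0177 with the 2 groups alone).

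With the probe sets used, no gene passed in the remaining lists. A probe set of the regulator HAP1 that was not used fell with galacturonic acid, by -1.89 in a fit of every probe set (limma, adjusted p = 0.0246). The medians were 0.05 for the 11 other subunit and regulator genes of the complexes, 0.07 for the 4 other electron donors to ubiquinone, 0.04 for the 10 ubiquinone synthesis genes, -0.16 for the 5 tested carriers and porins, and 0.31 for the 7 transcription regulators. HAP4, the activator subunit that switches respiratory genes on, read 287.7, 384.3 and 265.5 in control and 383.9 and 493.6 with galacturonic acid. The groups overlapped, at a log2 difference of 0.50 ± 0.91.

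**Figure D3:**
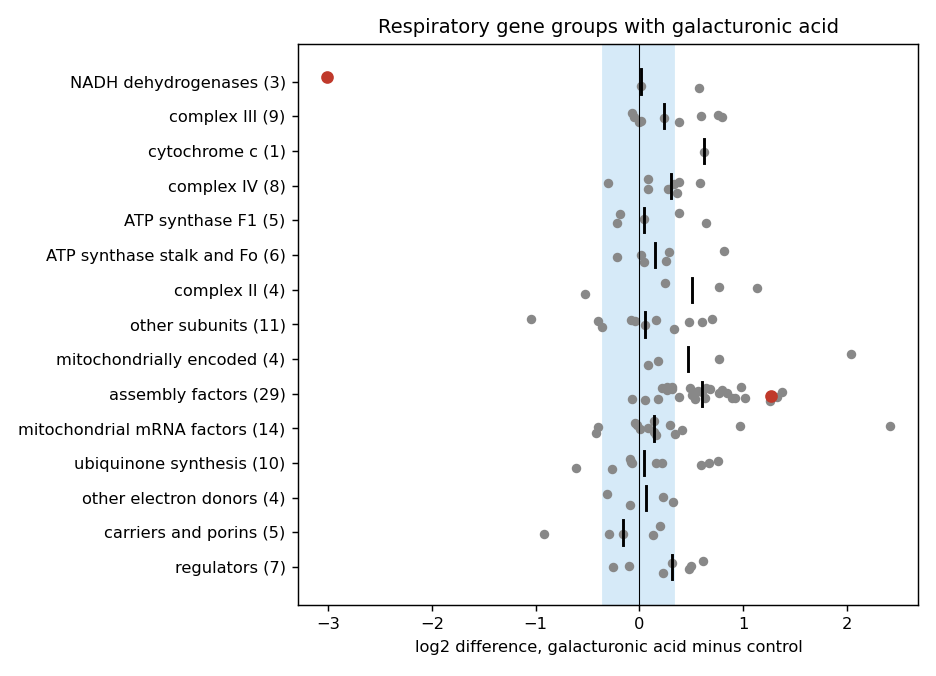
Log2 difference between galacturonic acid and control for each tested gene, by group, with the number of genes in brackets. Red points passed the test (NDE2 and ATP10), black bars are group medians, and the blue band is the interquartile range of all tested genes. The median of the 29 assembly factors, 0.60, lies furthest to the right among the groups of more than 1 gene.

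The second comparison set the galactose cultures against the same 3 control arrays, as the study ran galactose at a low dose beside galacturonic acid. Of the 32 genes none was called higher and 2 lower, NDI1 and ATP3, where 4.75% of all tested genes were called higher and 4.31% lower. At an unadjusted p under 0.05 limma placed none higher and 7 lower, against 1145 and 668 of the 5220 tested genes. Over all genes the calls split into 248 higher and 225 lower. The split depended on the scaling, with 131 and 281 after quantile normalisation and 100 and 326 after scaling to the 75th percentile, and the median of all genes moved from 0.22 to 0.13 and 0.04. Among the members, 4 were called lower and none higher after scaling to the 75th percentile, with QCR2 and ATP16 added.

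NDI1 read 309.9 and 45.2 on the galactose arrays against 983.5, 1168.4 and 981.6 in control. Both galactose arrays lay below all control arrays, but they differed from each other 6.86-fold. The log2 difference was -3.14 ± 0.68, an 8.80-fold lower level (limma, adjusted p = 0.0353). In the fit of the galactose and control arrays alone it did not pass (adjusted p = 0.107). Without galactose array 1 the log2 difference was -4.53 (adjusted p = 0.000395), and without galactose array 2 it was -1.75 (adjusted p = 0.0290). Leaving out any 1 of the other 5 arrays ended the call, with adjusted p of 0.103 to 0.112.

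ATP3 read 1347.2 and 750.3 with galactose against 2481.5, 2328.9 and 2444.9 in control. Both galactose arrays were below control, at a log2 difference of -1.27 ± 0.32 (limma, adjusted p = 0.0464). In the fit of those 2 groups alone it did not pass (adjusted p = 0.117), nor without galactose array 2 (-0.84, adjusted p = 0.0787), nor without any 1 of the other 5 arrays (0.118 to 0.132).

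The external dehydrogenase genes gave no call with galactose. NDE1 read 1280.2 and 1933.6, on either side of control, and NDE2 read 294.6 and 739.9, also on either side. The log2 differences were 0.02 ± 0.29 and -0.46 ± 0.45. The ratio of NDE2 over NDE1 was 0.230 and 0.383, a log2 difference of -0.48 from control (exact two-sided permutation test, p = 0.4, smallest possible 0.2).

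Both galactose arrays lay above all controls for 2 of the 32 genes, COX13 and ATP20, where 31.4% of all tested genes did so. They lay below all controls for 10, where 16.4% of all tested genes did so. Those 10 were NDI1, QCR2, RIP1, CYC1, COX4, COX5A, COX9, ATP1, ATP3 and ATP16. For RIP1 this holds with the probe set used. Its control probe set read 570.4 and 41.8 with galactose against 1749.4, 775 and 456.7 in control, so those groups overlapped. QCR2, at 635 and 132.8 with galactose, had a log2 difference of -2.04 ± 0.57 and missed the threshold (limma, adjusted p = 0.0588). ATP16, at 1186.5 and 344.1 against 1839.9, 2013.7 and 2000.3 in control, had -1.61 ± 0.47 (adjusted p = 0.0651). COX13 read 776.6 and 1906.7 and ATP20 301.3 and 395.8, at 0.80 ± 0.39 and 0.63 ± 0.29, and neither passed. The median of the 32 log2 differences was 0.01, against 0.22 for all genes, and its sign depended on the array, at -0.18 with galactose array 1 alone and 0.21 with array 2 alone. With the probe sets used, the 6 stalk and membrane genes of the ATP synthase were all above 0, with a median of 0.52. A second probe set of ATP14, a stalk gene, was below 0, at -0.52. The 5 F1 genes had a median of -0.70, complex III 0.02 and complex IV -0.11. The medians on galactose arrays 1 and 2 were 0.16 and 0.60 for the stalk and membrane genes, and -0.48 and -1.69 for the F1 genes. None of the stalk and membrane genes passed.

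The 2 galactose arrays disagreed, on these genes as on others. They differed over 2-fold for 16 of the 32 genes, against 34.9% of all tested genes, and for 12 they lay on opposite sides of the control mean, against 31.0%. On galactose array 1, 30 of the 32 genes were within 2-fold of the control mean, and 2 were over 2-fold lower, where 15.1% of all tested genes were over 2-fold higher and 5.80% lower. On galactose array 2, 17 were within 2-fold, 6 were over 2-fold higher and 9 over 2-fold lower, where 22.6% of all tested genes were over 2-fold higher and 21.9% lower. On that array RIP1 read 68.5 against 1052.9 on galactose array 1, COX5A read 66.5 against 768.6 and CYT1 read 60.5 against 624.5. In the same RNA QCR8 read 150.7 against 49.9 and ATP7 read 1981.4 against 770.9.

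Gene length moved with these shifts. On galactose array 2, the 19 members under 500 bases had a median of 0.38 on the log2 scale relative to control and the 13 members of at least 500 bases a median of -1.07. The 618 tested genes under 500 bases had a median of 0.69 and the 4602 longer genes 0.00159. On galactose array 1 the medians were -0.13 and -0.28 for the short and long members and 0.20 and 0.33 for all genes. Across the 32 members on galactose array 2, Pearson's r of the shift with log2 length was -0.47 and Spearman's rho -0.58, with all points from 1 array, while over all tested genes they were -0.09 and -0.08. On that array 6 of the 19 shorter members lay below the control mean (CYC1, COX4, COX5A, COX6, COX9 and ATP16), and 4 of the 13 longer ones above it (NDE1, NDE2, ATP4 and ATP7). The log2 values of each array were also levelled by a smooth curve on gene length, fitted to all tested genes. NDI1 and ATP3 then passed, at -3.09 (limma, adjusted p = 0.0310) and -1.21 (adjusted p = 0.0432). Over all tested genes length and shift were only weakly related, so the curve could do little to level the stronger trend of the members. The part of the 3'/5' ratio in these shifts was not tested.

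**Figure D4:**
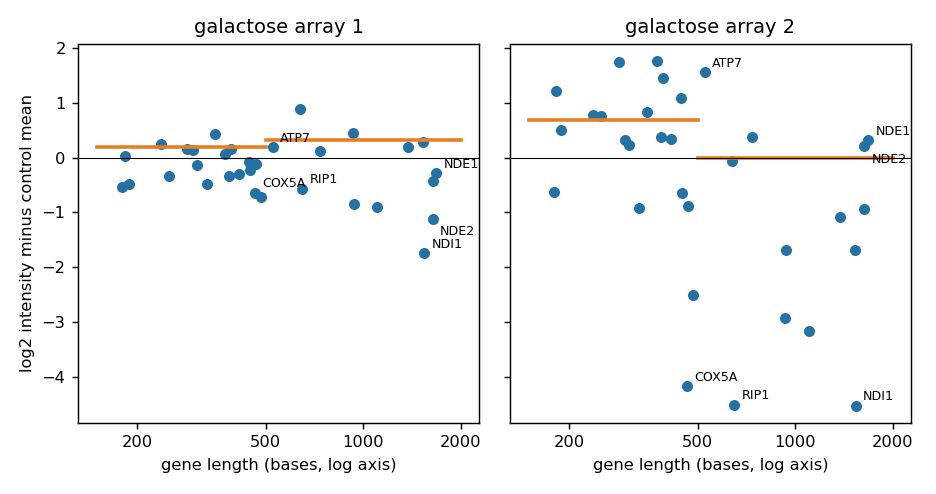
Log2 intensity of the 32 genes on each galactose array relative to the control mean (y axis) against gene length in bases (log x axis). Orange lines are medians of all tested genes under 500 and of at least 500 bases. On array 2 the points spread from -4.53 to 1.76, with medians of 0.38 for the short and -1.07 for the long members.

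Leaving out 1 galactose array changed the count of calls for these genes. Without galactose array 1, 6 were called higher (QCR6, QCR8, COX13, ATP7, ATP14 and ATP20) and 11 lower, where 20.7% of all tested genes were called higher and 20.4% lower. Without galactose array 2, NDI1 was called lower and none higher, where 1.76% were called higher and 1.90% lower. Each of these fits left a lone galactose array, whose spread was taken to be that of the remaining groups.

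On galactose array 2 the probe sets of ATP14 disagreed, while those of RIP1 were both low. ATP14, a stalk subunit gene, has 2 single-gene probe sets whose ratio was 0.863 to 1.08 on 6 arrays and 6.63 on galactose array 2, where they read 3391.8 and 511.5. The 2 probe sets differ in direction from control with galactose, at 0.92 for the one used and -0.52 for the other, and neither passed. For RIP1 both the probe set used and the control probe set were low on galactose array 2, at 68.5 and 41.8.

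**Figure D5:**
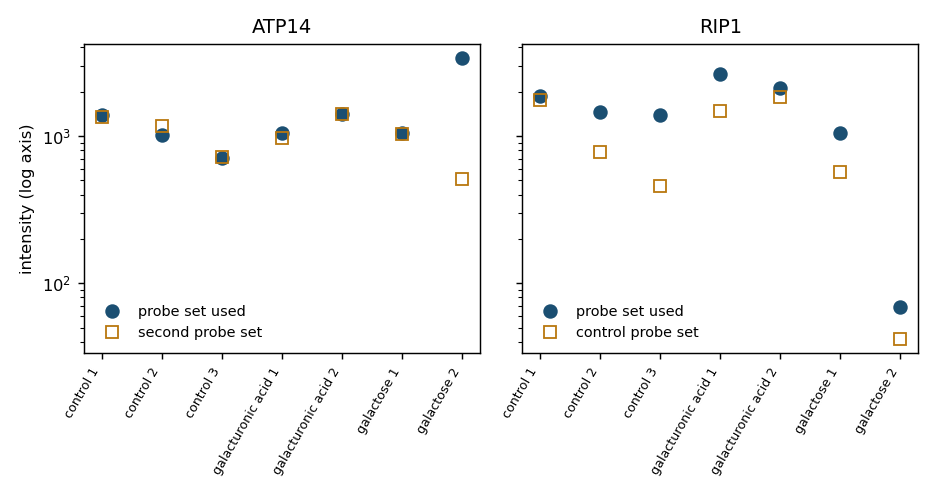
Intensity (log axis) on each array of the 2 probe sets of ATP14 (left) and of the RIP1 probe set used with the control probe set for RIP1 (right). The ATP14 probe sets are close on 6 arrays and 6.63-fold apart on galactose array 2, while both RIP1 probe sets drop there.

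Of the 88 further pathway genes, 2 rose and 3 fell with galactose, shares no larger than the 4.75% and 4.31% of all tested genes. COX16, an assembly factor of cytochrome oxidase, read 150.2 and 234.9 against 66.5, 72.9 and 41.7 in control, a log2 difference of 1.68 (limma, adjusted p = 0.0414). PET309, an activator of COX1 translation, read 22 and 40 against control values that all lay below the floor, so it was at least 2.47-fold higher (adjusted p = 0.0302). These 2 rises are of dim probe sets, and the control values of PET309, all raised to the floor, had no spread.

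The genes that fell were MIR1, CYC3 and COX19. MIR1, the mitochondrial phosphate carrier that supplies the ATP synthase, read 802.9 and 63.7 with galactose against 2578.1, 2716.6 and 1964.6 in control, at -3.41 ± 0.86 (limma, adjusted p = 0.0468). CYC3, which attaches heme to cytochrome c, read 160.1 and 38.2 against 411.6, 286.2 and 348.8, at -2.14 ± 0.55 (adjusted p = 0.0479). COX19, a small intermembrane space protein gene, read below the floor on both galactose arrays and 44.6, 50.5 and 41.6 in control, so it was at least 3.78-fold lower (adjusted p = 0.0136). COX19 alone of these 5 passed in the fit of the 2 groups (adjusted p = 0.0420). That pass rests in part on galactose values raised to the floor, which left them no spread. Without galactose array 2, COX16 and CYC3 were no longer called, and leaving out any 1 control or galacturonic acid array kept at most 1 of the 5 calls. HAP4 read 330.4 and 23.2, within the control range on galactose array 1 and below it on array 2. CYC7 read 46.5 and 176.7, below all control arrays on one and above them on the other.

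The third comparison set galacturonic acid against galactose, and it shares its arrays with the first 2. Of the 32 genes 3 were called higher with galacturonic acid and 1 lower, where 5.23% of all tested genes were called higher and 7.91% lower. The genes called higher were NDI1 (log2 difference 3.71 ± 0.74, adjusted p = 0.0231), QCR2 (2.83 ± 0.62, adjusted p = 0.0287) and CYC1 (1.32 ± 0.33, adjusted p = 0.0390). NDE2 was lower, at -2.56 ± 0.49 (limma, adjusted p = 0.0205). For these 4 genes the arrays of the 2 groups did not overlap. CYC1 read 1235.3 and 912.2 with galactose.

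Without galactose array 2 CYC1 was no longer called (1.11, adjusted p = 0.0791). In the fit of the galacturonic acid and galactose arrays alone, with fewer arrays to set the error, limma called no gene of the 5220. Leaving out either galacturonic acid array, control array 2 or control array 3 also ended all 4 calls, and without control array 1 the call of NDE2 was the one kept (adjusted p = 0.0456). In all, both galacturonic acid arrays lay above both galactose arrays for 14 members, where 22.6% of all tested genes did so, and below them for 4, where 41.1% of all tested genes did so. The split of calls over all genes, 273 higher and 413 lower, turned to 313 and 227 after quantile normalisation and to 355 and 180 after scaling to the 75th percentile.

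Of the 88 further pathway genes, 12 were called higher with galacturonic acid than with galactose and none lower, where 5.23% and 7.91% of all tested genes were so called. At an unadjusted p under 0.05 limma placed 22 higher and 4 lower, against 675 and 1226 of the 5220. The 12 were SDH1 and SDH4 of complex II, the mitochondrial gene COX1, the assembly genes CYT2, CYC3, COX10, COX19, SCO1, SHY1 and ATP10, the carrier gene MIR1 and HAP5, a subunit of the Hap complex that binds CCAAT boxes. COX19 and ATP10 lay below the floor on both galactose arrays, so their floored values had no spread there. COX19 was at least 5.86-fold higher (adjusted p = 0.00653), and ATP10 at least 2.63-fold (adjusted p = 0.0138). COX1 read 315.8 and 248.6 with galactose, at a log2 difference of 2.76 ± 0.52 (adjusted p = 0.0198). That call rests on 1 of 3 single-gene probe sets. Another, dim at 6.8 to 45, gave -0.36 in the fit of every probe set and did not pass (adjusted p = 0.653), and the other, at 3.3 to 27.5, did not pass the filter on low values. Without galactose array 2, SDH4, COX1, CYT2 and SHY1 were no longer called, and leaving out either galacturonic acid array ended all 12 calls. Leaving out 1 control array kept 2 to 7 of them.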

How the data were processed

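Values deposited by the authors are linear intensities of 9335 probe sets on 7 arrays. The submitters' processing notes name GCOS 1.2. Which signal algorithm it ran is not given in the sources used here. Values below 12 were raised to 12 and taken as log2. One limma 3.58.1 model in R 4.3.3 (a mean per group, eBayes with a trend on intensity and 4 residual degrees of freedom) was fitted to the 5220 genes above 12 on at least 2 arrays, with Benjamini-Hochberg adjustment over them and a threshold of 0.05, and was tested on simulated data. Errors of log2 differences are standard errors of that fit. Gene symbols came from the platform annotation. Gene lengths came from the RefSeq table of assembly R64 and run from start to end of the gene, introns included. No coordinates or sequences are given.

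Groups came from the treatment label. Replicate numbers follow deposit order and only name an array; p-values measure the spread between these arrays. The number of arrays limits precision. The members and gene lists were chosen with earlier results of these data known. Named were all members past the threshold in any comparison, NDI1, NDE1 and NDE2, the extremes of each complex, and of the other lists the genes past the threshold, CYC7, COX5B and HAP4. Other genes named, among them COX18, NCA3, SDH2, SDH3 and HAP1, were added after their values were seen. Alternatives changed the scaling, floor, filter, probe set choice, variance model, arrays fitted, gene length correction and threshold. Cross-hybridisation between related genes such as NDE1 and NDE2 was not tested.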

Additional observations from a re-analysis of the deposited data

Results flagged for a closer look

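HAP1, a heme-responsive activator of respiratory genes, has 3 single-gene probe sets, of which 1 was used. A second one read 246.8, 334.5 and 262.8 in control and 336.6 and 648.7 with galactose, so both galactose arrays lay above all control arrays, by 0.74 on the log2 scale. It is listed here because it is a signal in a probe set that the comparisons did not use, and it did not pass in a fit of every probe set (limma, adjusted p = 0.171). The third probe set went the other way. It read 250.6, 271.1 and 297.1 in control, 62.5 and 86.8 with galacturonic acid and 131.9 and 130.5 with galactose. In that fit its log2 difference with galacturonic acid was -1.89 (limma, adjusted p = 0.0246), while the probe set used gave 0.48 and did not pass. HAP1 was named after its values were seen, and why its probe sets disagree was not tested. Whether any of them also reads other genes was not tested either, so the values of the probe set used need not be those of HAP1 alone.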

How the results depend on the processing

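Calls depended on which arrays set the error. Over 49 named genes 3353 alternative values were computed: none reversed a called direction, 264 lost a call, 83 gained one, and 91 changed sign between values that passed in neither setting. A stricter threshold, no intensity trend, other filters, 2-group fits and leaving out an array outside the comparison keep the log2 difference unchanged. Under those settings no direction could be reversed. With galacturonic acid against control, the 1 member called became 0 with a floor of 50, without the filter on low genes, for genes under 500 bases and at a threshold of 0.01, and 2 with array weights and in the refiltered fit of those 2 groups, which was chosen after seeing the data. Leaving out 1 array gave 0 to 2. The 121 genes called became 64 with a floor of 50, 58 without the filter, 77 with a filter at the median level, 774 with array weights, 256 and 425 in the fits of the 2 groups without and with refiltering, 13 under 500 bases and 23 at the threshold of 0.01, and 1 to 287 without 1 array. With galactose against control, the 2 members called became 1 after quantile normalisation, with a filter at the median level and without the intensity trend, 4 with 75th percentile scaling, 0 with a floor of 50, without the filter, under 500 bases, at 0.01, with array weights and in both 2-group fits, and 0 to 17 without 1 array. The 473 genes called became 220 (floor of 50), 178 (no filter), 120 (median filter), 16 (array weights), 38 and 95 (2-group fits), 77 (under 500 bases), 25 (threshold of 0.01) and 21 to 2145 without 1 array. The median of the members, 0.01, became -0.24 with the length curve and -0.68 for genes of at least 500 bases, and -0.18 to 0.21 without 1 array. With galacturonic acid against galactose, the 4 members called became 0 with a floor of 50, without the filter, in both 2-group fits and at 0.01, 1 under 500 bases, 2 with array weights and 0 to 19 without 1 array. The 686 genes became 268, 244, 153, 135, 0 and 1, 93 and 49 under the settings in the same order, and 4 to 2327 without 1 array. The median of the members, 0.04, became 0.21 with 75th percentile scaling, 0.27 with the length curve, 1.05 for genes of at least 500 bases and -0.14 to 0.30 without 1 array. Settings that test fewer genes or arrays change the adjustment and the error by construction. The setting of genes under 500 bases left out NDE2, NDI1, ATP3 and QCR2, which are longer. Their calls could not be kept there, whatever the data. For the other settings the cause was not tested. No paired analysis was possible because the labels give no replicate number that links arrays across groups.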
